A study of Mus musculus with 24 samples.

Results

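The mitochondrial ribosomal proteins were taken as every gene of the deposited read count table whose symbol starts with Mrpl or Mrps followed by a digit. This gave 78 of 24091 genes, of which 49 carried an Mrpl symbol (large subunit) and 29 an Mrps symbol (small subunit). Of the 78, 77 passed the filter on low counts and were tested among 13520 genes. The exception was Mrpl53, a large subunit protein, with 0 counts in each of the 24 libraries. The rule used symbols only and no measured value.

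Mitoribosomes are the ribosomes of the mitochondrial matrix. They translate the few mRNAs made from mitochondrial DNA, which encode core subunits of the respiratory chain complexes and of ATP synthase. Their RNAs are made in the mitochondrion, but all of their proteins are encoded in the nucleus, translated in the cytosol and imported. The large subunit holds the peptidyl transferase centre and the exit tunnel, and the small subunit binds the mRNA and reads its codons. Some of the proteins are counterparts of bacterial ribosomal proteins and others are found only in mitochondria. Nuclear respiratory factor 1 (NRF1), the ETS family factor GABP (NRF-2) and YY1 are known for binding promoters of nuclear genes of mitochondrial function.

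RNA was sequenced from sorted bone marrow (BM) LSKs (Lin-Sca-1+c-Kit+ cells, a fraction enriched in hematopoietic stem and progenitor cells) of 24 mice, 6 in each of 4 groups with 3 females and 3 males. The WT group was miR-142+/+ without BCR-ABL, the miR-142 KO group was miR-142-/- without BCR-ABL, the CP (chronic phase) CML group was miR-142+/+ BCR-ABL, and the BC (blast crisis) CML group was miR-142-/- BCR-ABL. All mice were on a C57BL/6 background, and BCR-ABL was expressed from a tetracycline-off transgene under the SCL promoter, which is active in stem and progenitor cells, with sampling 2 weeks after induction. The labels write the 3 altered genotypes as Mir142 KO, BCR-ABL+ and Mir142 KO BCR-ABL+. Ages were not given in the sources used here, and each library came from its own mouse.

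Total counts per library lay between 16267965 and 24687077. The Mir142 gene, read first as a check of the labels, had 94 to 127 counts in WT libraries, 68 to 153 in CP CML libraries and 0 in each miR-142 KO and BC CML library. The sort markers were present: Kit averaged 807 CPM in BC CML, 1109 in CP CML, 801 in miR-142 KO and 936 in WT, and Ly6a (Sca-1) averaged 110.3, 51.9, 92.3 and 41.7 CPM in the same order. CPM are counts scaled to a fixed library total after TMM normalization. The library of miR-142 KO replicate 3, a female, stood apart from the other 5 of its group. It was the highest of the group for 46 of 48 large and 27 of 29 small subunit members, with a median ratio to the mean of the other 5 of 1.26 and 1.27. Its mean log2 level over marker lists was 1.80 for erythroid genes (3.39 to 4.34 in the other 5), 2.75 for monocyte or macrophage genes (4.27 to 5.17), 6.55 for neutrophil-primed genes (7.39 to 7.97) and 0.77 for mature neutrophil genes (1.36 to 3.76). It was also below the others for megakaryocyte genes (2.56, against 3.29 to 5.28) and B lineage genes (-0.41, against 0.51 to 1.72), and above them for S phase and mitosis genes (7.78, against 7.43 to 7.52). The counts and subunit levels of miR-142 KO are given with and without it.

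To show the starts of genes the results turn on, the stretch from 150 bases before to 30 bases after the transcription start is printed for 6 members. These are the members, among the 5 of each subunit with the smallest p in BC CML against CP CML or in BC CML against miR-142 KO, whose promoter lay at the deposited gene and had an ETS (CCGGAAG) or NRF1 core (TGCGCA) motif within 100 bases before the start, and they were chosen after their values were seen. The sequences are RefSeq promoters of GRCm38.p6, printed 5′ to 3′ along the gene, with the ETS, NRF1 core and YY1 (AAGATGG) motifs in capitals.
Mrpl22, chr11:58171514-58171693, plus strand: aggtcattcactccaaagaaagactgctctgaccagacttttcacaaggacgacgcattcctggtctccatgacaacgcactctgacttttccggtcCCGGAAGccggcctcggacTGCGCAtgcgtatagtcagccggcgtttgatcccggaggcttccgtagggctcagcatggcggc
Mrpl34, chr8:71464776-71464955, plus strand: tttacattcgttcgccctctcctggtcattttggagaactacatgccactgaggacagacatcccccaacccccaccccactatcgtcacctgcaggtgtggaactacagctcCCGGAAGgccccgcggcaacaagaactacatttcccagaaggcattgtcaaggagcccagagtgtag
Mrpl51, chr6:125192050-125192229, plus strand: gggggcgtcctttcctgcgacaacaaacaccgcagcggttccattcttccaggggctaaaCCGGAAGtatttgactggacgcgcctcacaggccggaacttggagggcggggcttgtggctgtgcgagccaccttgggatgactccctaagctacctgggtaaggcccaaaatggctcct
Mrpl9, chr3:94443186-94443365, plus strand: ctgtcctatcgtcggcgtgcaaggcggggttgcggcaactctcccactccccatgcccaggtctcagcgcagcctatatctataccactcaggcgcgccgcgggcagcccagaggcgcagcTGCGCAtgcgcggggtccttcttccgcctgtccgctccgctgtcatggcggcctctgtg
Mrps22, chr9:98601650-98601829, minus strand: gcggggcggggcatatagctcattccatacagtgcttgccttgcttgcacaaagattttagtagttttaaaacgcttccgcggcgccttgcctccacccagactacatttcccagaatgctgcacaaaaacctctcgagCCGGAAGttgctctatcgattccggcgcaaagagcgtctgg
Mrps7, chr11:115603990-115604169, plus strand: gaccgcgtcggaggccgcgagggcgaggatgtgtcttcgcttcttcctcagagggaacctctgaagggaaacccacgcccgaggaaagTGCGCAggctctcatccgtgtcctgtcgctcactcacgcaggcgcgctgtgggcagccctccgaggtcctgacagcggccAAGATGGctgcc

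In Mrpl22, whose product lines the exit tunnel, the ETS motif began 53 bases and the NRF1 core 34 bases before the start. The Mrps7 window held an NRF1 core 62 bases before the start and a YY1 motif 18 bases after it. The ETS motif began 90 bases before the start in Mrpl51, 37 in Mrpl34 and 11 in Mrps22, and the NRF1 core 29 bases before it in Mrpl9. Matches are letters in a window and not evidence of binding.

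Across RefSeq promoters (250 bases before to 50 after the start), 69 members matched by symbol, with 75 promoter records, and 46 of these genes held at least 1 of 4 motifs searched on both strands. The ETS motif CCGGAAG was in 34.7% of member promoters (31.3% of the large and 40.7% of the small subunit), against 16.7% of promoters of tested genes and 8.86% of all promoters. The NRF1 core TGCGCA was in 29.3% (25% and 37.0%), against 13.0% and 7.76%. The YY1 motif AAGATGG was in 17.3% (14.6% and 22.2%), against 6.92% and 6.34%. The E-box CACGTG, the motif bound by MYC, was in 9.33% of member promoters (12.5% of the large and 3.70% of the small subunit). It was in 9.72% of promoters of tested genes and 7.15% of all. None of the 4 motifs contains another, and member promoters had a median GC content of 58.7%, against 60.3% for tested genes. The 3 motifs known from nuclear genes of mitochondrial function were thus carried by a larger share of member promoters than of tested genes. The E-box was not over both subunits together, though its large subunit share was above that of tested genes. Among members named below by smallest p in a comparison, Mrpl12, Mrpl14, Mrpl16, Mrpl24, Mrpl28, Mrpl30, Mrps10, Mrps15, Mrps25 and Mrps5 had promoters with none of the 4 motifs. Other members named below, such as Mrpl41 and Mrpl50, had none of them either. Lack of a motif says only that these letters are not in the window. Some records counted here, such as those of Mrpl20, Mrpl23 and Mrpl30, did not overlap the deposited gene. The E-box of Mrpl2 was counted in each of its overlapping records.

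**Figure D1:**
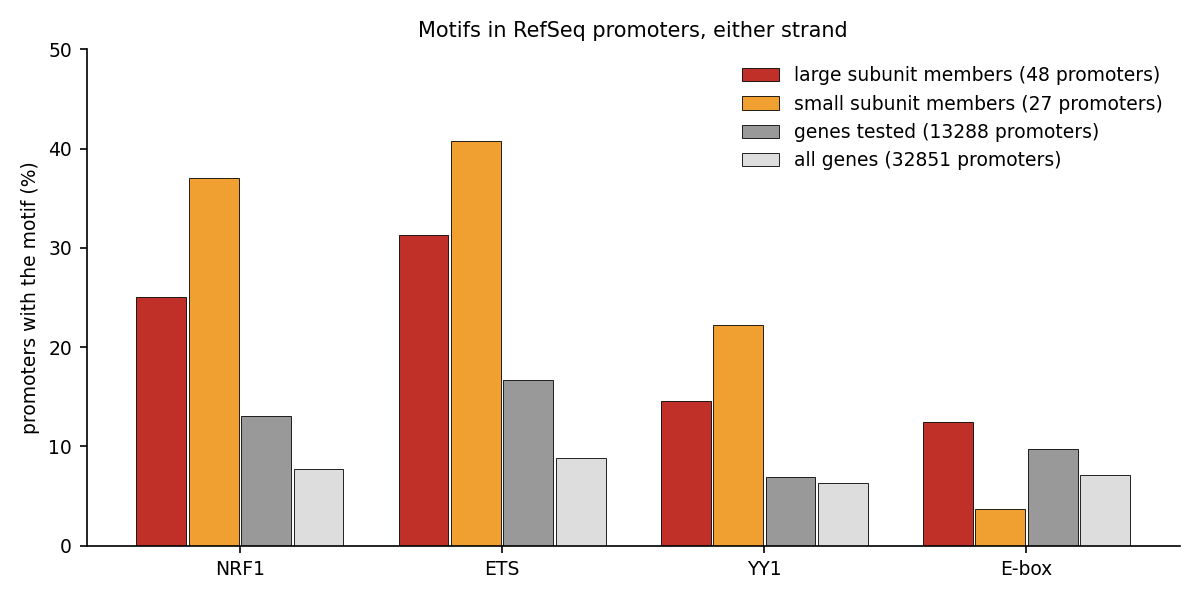
Share of RefSeq promoters (percent, vertical axis) that hold each of 4 motifs on either strand, for large subunit members, small subunit members, genes tested and all genes. For NRF1, ETS and YY1 the member bars stand above the grey bars. For the E-box (CACGTG) the large subunit bar is the highest at 12.5% and the small subunit bar the lowest at 3.70%.

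Counted per kb of gene length and scaled to a fixed total, which allows genes to be compared with each other, members spanned a wide range of levels. The highest means over the 24 libraries were those of Mrpl24 (267), Mrpl30 (247) and Mrpl12 (229.6), the last the stalk protein of the large subunit. The lowest detected were Mrpl23 (2.28, with 2 to 17 counts per library) and Mrps36 (4.12, with 8 to 34 counts), followed by Mrps33 (12.9). Mrps36 has an Mrps symbol but its product is known as a component of the 2-oxoglutarate dehydrogenase complex. Members had a median length of 1.2 kb, against 3.28 kb for tested genes, and lay on 17 chromosomes with at most 11 on any of them. The strand setting of the counting was not stated, and 33 members shared exon bases with another gene, 8 of them on the same strand and 25 on the opposite strand only. For Mrpl53, 88.0% of exon bases were shared with Gm42688, for Mrps34 77.8% with Nme3 or Mapk8ip3, and for Mrps25 69.8% with Nr2c2, so the counts of these 3 are uncertain.

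By group means of TMM-scaled CPM the levels of both subunits were lowest in WT, higher in miR-142 KO, higher again in CP CML and highest in BC CML. Before scaling, the members held a mean of 0.335% of counts in BC CML, 0.313% in CP CML, 0.282% in miR-142 KO and 0.270% in WT. The miR-142 KO share was 0.271% without replicate 3, near that of WT. Mean TMM factors from BC CML to WT were 0.959, 1.004, 0.995 and 1.044. The sizes of the steps between groups therefore depend on scaling, among them miR-142 KO over WT and BC CML over CP CML. The mean log2 CPM over the 48 tested large subunit members was 5.37 ± 0.08 in BC CML (SD, n = 6, from 5.26 to 5.47), 5.18 ± 0.11 in CP CML (5.02 to 5.30), 5.05 ± 0.14 in miR-142 KO (4.98 to 5.33) and 4.91 ± 0.08 in WT (4.82 to 5.02). Without replicate 3, miR-142 KO stood at 4.997 ± 0.01 (n = 5, highest 5.01), inside the WT range. Over the 29 small subunit members it was 4.96 ± 0.09 in BC CML (4.81 to 5.04), 4.79 ± 0.11 in CP CML (4.60 to 4.92), 4.65 ± 0.15 in miR-142 KO (4.55 to 4.95) and 4.53 ± 0.08 in WT (4.41 to 4.61). Without replicate 3, miR-142 KO was 4.60 ± 0.03, from 4.55 to 4.62. In both subunits WT overlapped miR-142 KO, and CP CML overlapped its neighbours. For the large subunit the overlap of miR-142 KO with CP CML came from replicate 3 alone. WT overlapped CP CML only through replicate 6 of each group, and WT and BC CML did not overlap. In BC CML, the mean was the highest of the 4 groups for 46 of 48 large and 27 of 29 small subunit members, and WT was the lowest for 42 and 26.

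**Figure D2:**
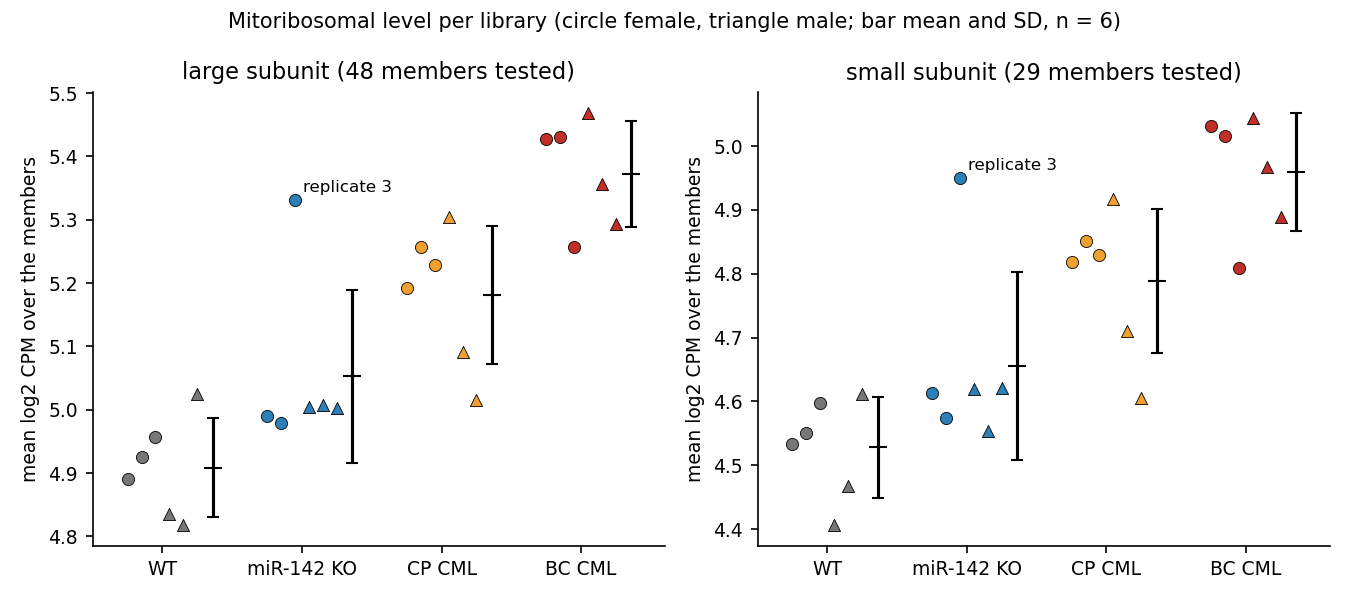
Mean log2 CPM over the tested members (vertical axis) in each library by group, for the large (left) and small (right) subunit; circles are females, triangles males, and bars the mean and SD of 6. miR-142 KO replicate 3 stands at 5.33 and 4.95, above the other 5 of its group, and the BC CML libraries lie above all WT libraries.

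The summed level of the large subunit was 2378 ± 136 CPM in BC CML, 2108 ± 152 in CP CML, 1920 ± 215 in miR-142 KO (1832 ± 18.6 without replicate 3) and 1749 ± 88.3 in WT (SD, n = 6). For the small subunit the sums were 1118 ± 61.0, 1010 ± 70.6, 917.3 ± 101.5 (876.2 ± 15.3 without replicate 3) and 842.3 ± 39.0 CPM in the same order. The subunits thus moved nearly in step, with a ratio of the large to the small sum of 2.13 ± 0.01 in BC CML, 2.09 ± 0.01 in CP CML, 2.09 ± 0.04 in miR-142 KO (2.09 ± 0.04 without replicate 3) and 2.08 ± 0.02 in WT. The BC CML ratios (2.12 to 2.15) lay above those of CP CML (2.07 to 2.11) in all 6 libraries. The miR-142 KO ratios, with or without replicate 3, ranged from 2.05 to 2.15 and so overlapped both. Cytosolic ribosomal proteins summed to 16188 ± 750.4 CPM in BC CML, 15507 ± 671 in CP CML, 15414 ± 885 in miR-142 KO (15092 ± 449 without replicate 3) and 15194 ± 786 in WT. In these bulk libraries fewer cells of a type and less RNA per cell cannot be told apart.

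BC CML was compared with CP CML to ask what the absence of miR-142 goes with in BCR-ABL LSKs. Levels of 32 members rose, 21 of 48 in the large subunit (43.8%) and 11 of 29 in the small subunit (37.9%), by edgeR's quasi-likelihood test with a Benjamini-Hochberg adjusted p below 0.05. Of all 13520 genes tested, 20.4% rose. No member fell (17.6% of all genes did), none was lower at an unadjusted p below 0.05, and DESeq2 gave 33 that rose and 0 that fell. The changes were small. The log2 fold change was above 0 for 47 of 48 large and 27 of 29 small subunit members, with medians of 0.19 and 0.18, against 0.01 over all genes tested, and no member that rose reached 0.5. In 4 of 77 members, Mrpl28, Mrpl51, Mrps15 and Mrps22, every BC CML library lay above every CP CML library. This share was below the 11.4% of all genes.

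The count depended on single libraries and on scaling. It was 16 without CP CML replicate 6, 17 without CP CML replicate 5, 17 without BC CML replicate 1, 18 without BC CML replicate 4, 21 without BC CML replicate 2, and 38 without miR-142 KO replicate 3, which changes the shared estimate of spread. Without CP CML replicates 5 or 6 or BC CML replicates 1, 2 or 4, 16.2% to 16.5% of all genes rose, and without CP CML replicate 6, where the members' count was lowest, 20.8% of members and 16.2% of all genes rose. Without miR-142 KO replicate 3, 20.7% of all genes rose. CP CML replicates 5 and 6 had the lowest large subunit levels of their group, 5.09 and 5.02. With upper quartile scaling 19 members rose (13 and 6), among 16.0% of all genes, and the share of called genes that were higher was 42.4% in place of 53.7%. Within each sex the difference in mean log2 level had the same sign, 0.15 in females and 0.24 in males for the large subunit and 0.12 and 0.22 for the small subunit.

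Among large subunit members, Mrpl51, a mitochondria-specific protein, had the smallest p. Its level (lowest, median and highest of 6) was 19.2, 25.9 and 27.9 CPM in CP CML and 28.6, 34.5 and 37.6 CPM in BC CML. In WT it was 16.8, 18.8 and 20.4 CPM and in miR-142 KO 22.9, 23.9 and 28.4 CPM. The BC CML libraries were thus the highest of the study, and its log2 fold change against CP CML was 0.47 ± 0.09 (SE, adjusted p = 0.000201). Mrpl28, a counterpart of a bacterial protein, was at 34.2, 41.6 and 44.0 CPM in CP CML and 46.1, 53.1 and 56.4 CPM in BC CML, a log2 fold change of 0.37 ± 0.08 (adjusted p = 0.000621). Mrpl14, which lies at the interface with the small subunit (0.30 ± 0.08, adjusted p = 0.00411), Mrpl34 (0.28 ± 0.07, 0.00351) and the mitochondria-specific Mrpl49 (0.23 ± 0.06, 0.00485) completed the 5 large subunit members with the smallest p. Of these 5, Mrpl14, Mrpl34 and Mrpl49 were not called in CP CML against WT or in miR-142 KO against WT.

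In the small subunit Mrps15, a counterpart of a bacterial protein, was at 46.9, 57.3 and 60.9 CPM in CP CML and 61.8, 67.9 and 74.2 CPM in BC CML, with no overlap (log2 fold change 0.31 ± 0.06, adjusted p = 0.000527). Mrps22, a mitochondria-specific protein in which inherited variants cause mitochondrial disease, was at 28.96, 32.4 and 34.7 CPM in CP CML and 37.3, 40.7 and 46.5 CPM in BC CML (0.34 ± 0.07, adjusted p = 0.000961). In WT and miR-142 KO its medians were 26.8 and 29.3 CPM, so BC CML again held the highest libraries. Mrps21 rose by 0.39 ± 0.11 (adjusted p = 0.00645), Mrps12, which lies at the decoding centre, by 0.37 ± 0.10 (0.00534), and Mrps25 by 0.29 ± 0.08 (0.00485). The members with values below 0 were Mrps9 (-0.10, adjusted p = 0.206), Mrpl52 (-0.03, 0.791) and Mrps26 (-0.02, 0.821), none of them called. By kind, 11 of 30 bacterial counterparts and 10 of 18 mitochondria-specific proteins of the large subunit rose, and 9 of 16 and 2 of 10 in the small subunit. The difference between these shares was not tested.

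**Figure D3:**
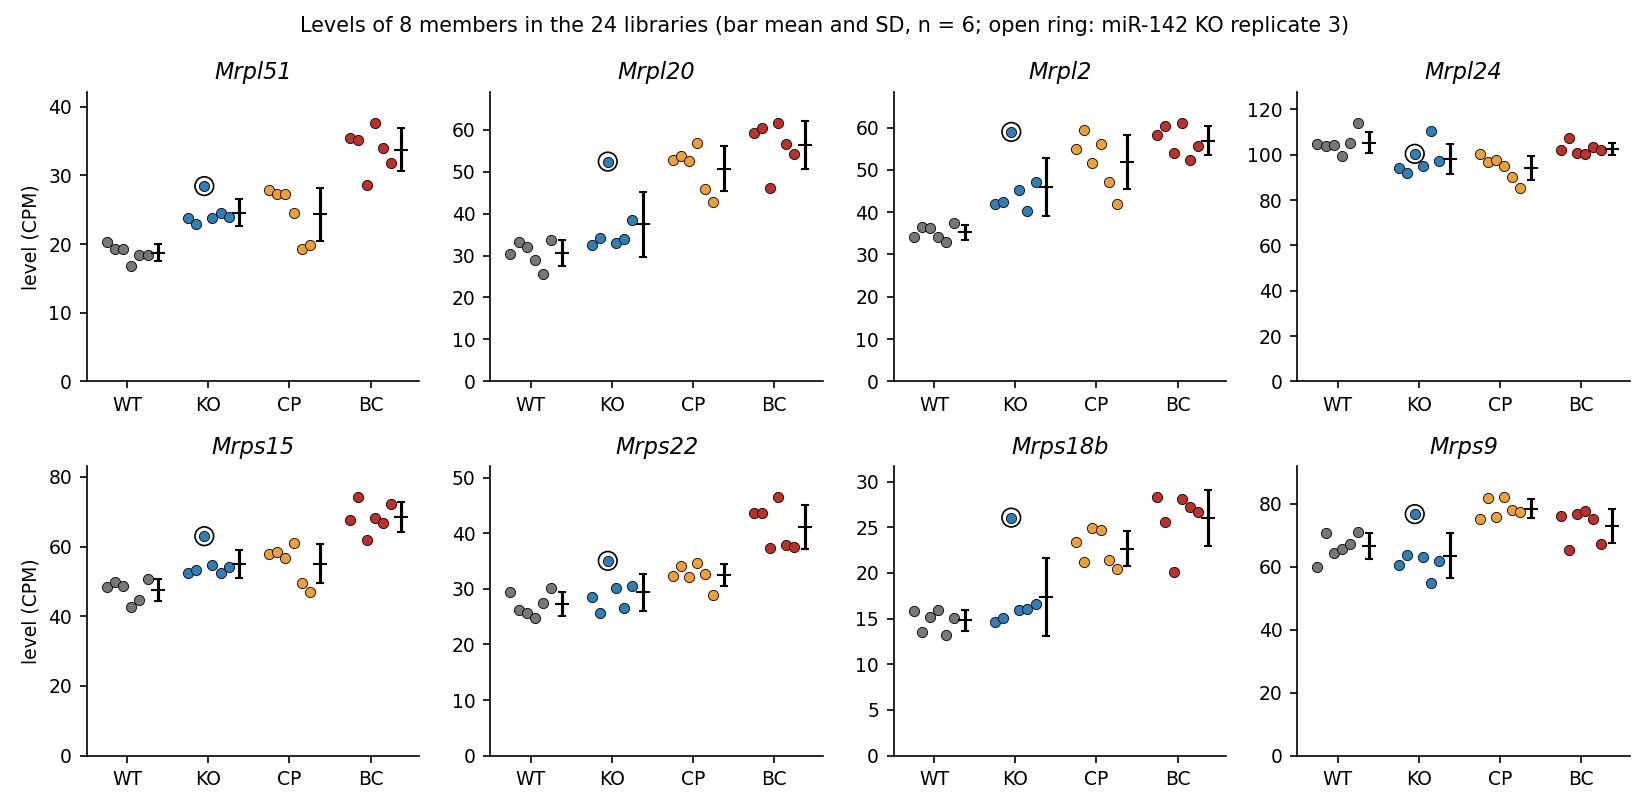
Level (CPM, vertical axis from 0) of 8 members in the 24 libraries, with BC CML rightmost, CP CML next to it, then miR-142 KO and WT leftmost, and bars for the mean and SD of 6; the open ring marks miR-142 KO replicate 3. For Mrpl51, Mrps15 and Mrps22 all BC CML libraries lie above all CP CML libraries, for Mrpl24 the CP CML median is the lowest at 95.8 CPM, and for Mrps9 CP CML and BC CML overlap.

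In LSKs without BCR-ABL, miR-142 KO was compared with WT. Levels of 20 members rose, 15 of 48 in the large (31.3%) and 5 of 29 in the small subunit (17.2%), against 19.9% of all genes. None fell, against 16.4% of all genes, 1 member (Mrpl24) was lower at an unadjusted p below 0.05, and DESeq2 gave 21 that rose and 0 that fell. The median log2 fold change was 0.13 in both subunits, against 0.01 over all genes, and 44 large and 26 small subunit members were above 0. This comparison rested in part on miR-142 KO replicate 3. Without it 9 large and 3 small subunit members rose, among 18.99% of all genes, 1 fell (Mrps6, -0.26, adjusted p = 0.0477), and the medians were 0.07 and 0.09. Of the 20 calls 12 were kept, and Mrpl10, Mrpl12, Mrpl20, Mrpl27, Mrpl38, Mrpl41, Mrps11 and Mrps28 were lost. The small subunit share was thus below that of all genes and the large subunit share near it once this library was left out. With upper quartile scaling 12 rose and 2 fell (Mrpl24 and Mrpl9), and 42.0% of called genes were higher in place of 54.7%. When only these 2 groups were fitted, 9 members rose (11.7%), below the 15.2% of all genes that rose in that fit.

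In 5 of 77 members, Mrpl16, Mrpl2, Mrpl51, Mrps11 and Mrps15, every miR-142 KO library lay above every WT library. This share was below the 8.31% of all genes. Mrpl2, which lies near the peptidyl transferase centre, was at 33.0, 35.2 and 37.4 CPM in WT and 40.3, 43.8 and 59.0 CPM in miR-142 KO. Its log2 fold change was 0.38 ± 0.08 (adjusted p = 0.000891), and 0.31 without replicate 3. Mrpl16 was at 29.8, 36.8 and 40.7 CPM in WT and 42.2, 46.0 and 77.7 CPM in miR-142 KO, where the highest value was that of replicate 3 (0.52 ± 0.12, adjusted p = 0.00127, and 0.37 without it). Mrpl51 rose by 0.39 ± 0.09 (adjusted p = 0.00136, and 0.35 without replicate 3). Mrpl33 (0.29 ± 0.08, 0.00434) and Mrpl30 (0.22 ± 0.06, 0.00758) also rose. In the small subunit Mrps10 rose by 0.27 ± 0.07 (adjusted p = 0.00725), Mrps15 by 0.21 ± 0.06 (0.0126) and Mrps26 by 0.23 ± 0.08 (0.0182). Mrps28 (0.27 ± 0.09, 0.0231) and Mrps11 (0.21 ± 0.07, 0.0329) were no longer called without replicate 3 (0.0665 and 0.0756).

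CP CML was compared with WT to give the change that goes with BCR-ABL where miR-142 is present. Levels of 56 members rose, 35 of 48 in the large (72.9%) and 21 of 29 in the small subunit (72.4%), against 22.5% of all genes. Of all genes 22.9% fell, and among members only Mrpl24 did, which was also the only member lower at an unadjusted p below 0.05, and DESeq2 gave 57 that rose and 1 that fell. The median log2 fold change was 0.27 in the large and 0.25 in the small subunit, against -0.02 over all genes. In 19 of 48 large and 11 of 29 small subunit members every CP CML library lay above every WT library, against 11.9% of all genes.

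Mrpl20, a counterpart of a bacterial protein needed early in large subunit assembly, showed the largest change. It was at 25.5, 31.2 and 33.7 CPM in WT and 42.7, 52.6 and 56.7 CPM in CP CML, a log2 fold change of 0.73 ± 0.10 (adjusted p = 1.21e-05). Mrpl12 was at 42.5, 48.1 and 60.8 CPM in WT and 67.9, 83.2 and 87.9 CPM in CP CML (0.68 ± 0.11, adjusted p = 6.35e-05), again with no overlap. Mrpl16 (0.63 ± 0.12, adjusted p = 0.000183), Mrpl2 (0.56 ± 0.08, 1.77e-05) and Mrpl33 (0.49 ± 0.08, 3.11e-05) also rose. In the small subunit Mrps18b was at 13.2, 15.1 and 15.9 CPM in WT and 20.4, 22.4 and 24.9 CPM in CP CML (0.61 ± 0.11, adjusted p = 0.000169). Mrps26 rose by 0.47 ± 0.08 (adjusted p = 3.51e-05), Mrps34 by 0.44 ± 0.08 (0.000162), and Mrps10 by 0.41 ± 0.07 (0.000136). Mrps18a, placed in the large subunit by structure but counted here by its symbol, rose by 0.36 ± 0.08 (adjusted p = 0.000744). Mrpl24, a protein near the mouth of the exit tunnel, went the other way. It was at 99.6, 104.5 and 114.0 CPM in WT and 85.6, 95.8 and 100.5 CPM in CP CML, with overlap, and fell by 0.16 on the log2 scale (SE 0.05, adjusted p = 0.00611). Of its exon bases 26.3% were shared with Rrnad1 on the opposite strand.

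BC CML was then compared with miR-142 KO, the change with BCR-ABL where miR-142 is absent. Levels of 63 members rose, 40 of 48 in the large (83.3%) and 23 of 29 in the small subunit (79.3%), against 20.3% of all genes. None fell, against 19.3% of all genes, none was lower at an unadjusted p below 0.05 and DESeq2 gave 65 that rose and 0 that fell. All 77 values were above 0, with medians of 0.33 and 0.28 against -0.02 over all genes. Without miR-142 KO replicate 3, 43 and 28 rose, among 23.6% of all genes. Every BC CML library lay above every miR-142 KO library in 9 of 48 large and 1 of 29 small subunit members, against 6.09% of all genes. This comparison shares its libraries with the comparisons of BC CML with CP CML and of miR-142 KO with WT, as CP CML against WT does.

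Among large subunit members Mrpl35 was at 31.0, 32.0 and 38.5 CPM in miR-142 KO and 40.9, 44.5 and 47.8 CPM in BC CML, a log2 fold change of 0.43 ± 0.07 (adjusted p = 3.22e-05). Mrpl22 was at 11.1, 12.3 and 14.3 CPM in miR-142 KO and 15.8, 18.2 and 19.2 CPM in BC CML (0.52 ± 0.08, adjusted p = 4.94e-05). Both were free of overlap between the groups. Mrpl20 (0.59 ± 0.10, adjusted p = 0.000179), Mrpl34 (0.40 ± 0.07, 0.000222) and Mrpl9 (0.29 ± 0.05, 9.18e-05) rose too. In the small subunit Mrps22 had the smallest p (0.48 ± 0.07, adjusted p = 4.02e-05), with 25.7, 29.3 and 35.0 CPM in miR-142 KO and 37.3, 40.7 and 46.5 CPM in BC CML. Mrps18b (0.58 ± 0.11, adjusted p = 0.000445), Mrps7, which binds the small subunit rRNA (0.42 ± 0.08, 0.000547), Mrps5 (0.40 ± 0.08, 0.000498) and Mrps15 (0.32 ± 0.06, 0.000676) followed.

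**Figure D4:**
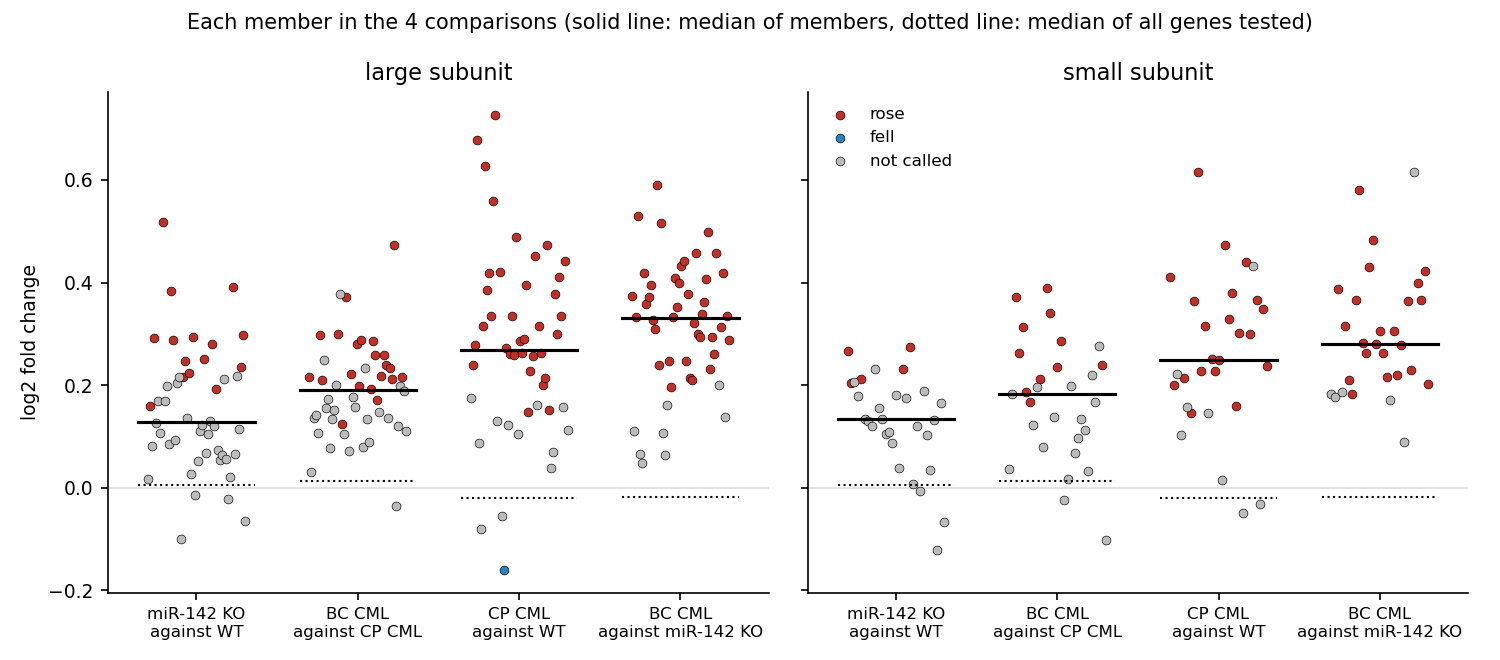
Log2 fold change (vertical axis) of each tested member in 4 comparisons, large subunit left and small subunit right; red points rose, blue points fell, grey points were not called, solid lines are member medians and dotted lines medians of all genes tested. In BC CML against miR-142 KO all 77 points lie above 0, and the only blue point is Mrpl24 in CP CML against WT.

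**Figure D5:**
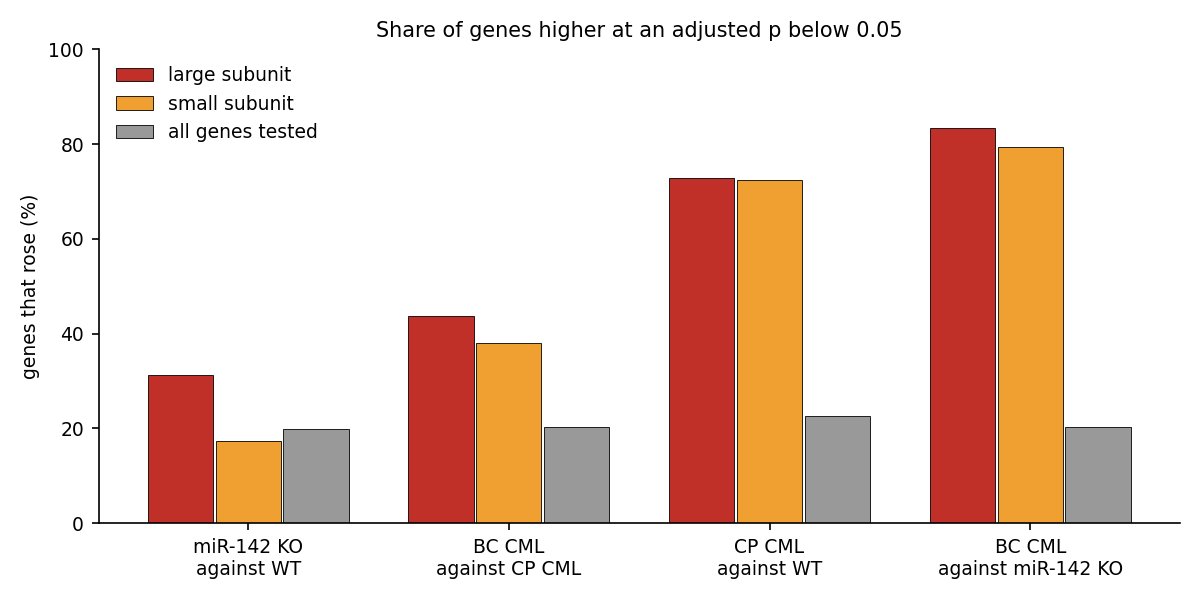
Share of genes (percent, vertical axis) that rose at an adjusted p below 0.05 in 4 comparisons, for large subunit members, small subunit members and all genes tested. The member bars reach 72.9% and 72.4% in CP CML against WT and 83.3% and 79.3% in BC CML against miR-142 KO, and in miR-142 KO against WT the small subunit bar (17.2%) is below that of all genes (19.9%).

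The effect of miR-142 loss was tested for a difference between BCR-ABL and non-BCR-ABL LSKs by the interaction of the 4 groups. Of the 77 members 1 passed, against 3.99% of all genes in either direction. It was Mrpl24, with a difference of 0.22 ± 0.06 (SE, adjusted p = 0.0478), from a value of -0.10 in miR-142 KO against WT (not called, adjusted p = 0.087) to 0.12 in BC CML against CP CML (0.0335). Its levels were 92.1, 96.3 and 110.5 CPM in miR-142 KO and 100.3, 102.1 and 107.6 CPM in BC CML, so all 4 groups overlapped. The call was lost under a likelihood ratio test (adjusted p = 0.054), RLE size factors (0.053), no filter (0.074), a filter of 1 CPM in 6 samples (0.067) and without miR-142 KO replicate 3 (0.0682), where Mrps6 was called instead (0.53, adjusted p = 0.0292). Among refits that left out a single library, only those without miR-142 KO replicate 3 or 5 held a member that rose. Over the members the median difference was 0.06 in the large and 0.05 in the small subunit.

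Members differed in how often they were called. Mrpl30, Mrpl41, Mrpl43, Mrpl51 and Mrps15 rose in all 4 comparisons (Mrpl41 not in miR-142 KO against WT without replicate 3, adjusted p = 0.0618), and Mrpl13, Mrpl23, Mrps33 and Mrps36 in none. The 4 comparisons share libraries, so repeated calls of a member are not independent. The share of all genes that rose in all 4 was not computed. The Mrps18 paralogs, which go to different places in the mitoribosome (Mrps18a to the large subunit, Mrps18b and Mrps18c to the small), are a case of unequal calls within 1 gene family. Counting by structure in place of symbol, with 50 large and 26 small subunit members, 21 and 11 rose in BC CML against CP CML, 15 and 5 in miR-142 KO against WT, 37 and 19 in CP CML against WT, and 42 and 21 in BC CML against miR-142 KO. Mrps18c was at 18.7, 21.8 and 23.7 CPM in WT and 24.2, 29.9 and 31.5 CPM in BC CML, and 23.2% of its exon bases were shared with Gm43511 on the same strand. Mrps18c rose in BC CML against CP CML (0.21, adjusted p = 0.0263), where Mrps18a (0.12, 0.225) and Mrps18b (0.20, 0.173) were not called. All 3 rose in CP CML against WT, by 0.36 (Mrps18a), 0.61 (Mrps18b) and 0.23 (Mrps18c), and none was called in miR-142 KO against WT. Differences between the paralogs were not tested.

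The miRNAs lost in the KO animals are the mature forms of miR-142, printed here with the seed (bases 2 to 8) in capitals to show which sites were searched. Both are from RefSeq, GRCm38.p6, plus strand of chr11, and they have different seeds.
mmu-miR-142a-5p, chr11:87756867-87756887: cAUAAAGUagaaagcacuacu
mmu-miR-142a-3p, chr11:87756903-87756925: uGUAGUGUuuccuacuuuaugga

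A site complementary to the 5p seed (ACTTTAT) was in an annotated 3' UTR of 9 of 77 members (11.7%), against 16.7% of 12618 tested genes with an annotated 3' UTR. A site for the 3p seed (ACACTAC) was in 5 (6.49%), against 7.44%. The longest 3' UTR had a median of 390 bases in members and 1178.5 bases in tested genes. The 5p sites of 4 members that rose in BC CML against CP CML are shown from the annotated 3' UTRs, with the site in capitals.
Mrpl15, chr1: atgcatgatagACTTTATattgtttttag
Mrpl35, chr6: gagatggtgggACTTTATgccttggttct
Mrpl51, chr6: atataccaagtACTTTATagtgagctata
Mrpl57, chr14: aatactgtaccACTTTATgctcagcagta

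Of the 9 members with a 5p site, Mrpl51 and Mrpl57 rose in miR-142 KO against WT (22.2%), as did 26.5% of the 68 without one. The medians of the log2 fold change were 0.10 and 0.13. In BC CML against CP CML, 6 of the 9 rose (Mrpl15, Mrpl35, Mrpl50, Mrpl51, Mrpl57 and Mrps14), against 38.2% of those without a site. Of the 5 with a 3p site, Mrpl58 rose in miR-142 KO against WT (20%, against 26.4% of the 72 without one). In BC CML against CP CML, Mrpl15 and Mrpl24 rose (40%, against 41.7%). Of all genes tested, 19.9% and 20.4% rose in these 2 comparisons. Sites were found by letters alone, and whether they act was not tested.

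Other parts of mitochondrial translation were read from lists of genes. Of 5 mitoribosomal proteins under other symbols, 4 rose in BC CML against CP CML, Gadd45gip1 (0.28, adjusted p = 0.00804), Chchd1 (0.24, 0.00355), Aurkaip1 (0.20, 0.0313) and Ptcd3 (0.19, 0.0229), and Dap3 was at 0.07 (0.193). In miR-142 KO against WT none of them was called (1 at an unadjusted p below 0.05), in CP CML against WT 3 rose and in BC CML against miR-142 KO 4 rose. Of 17 translation factors, 3 rose in BC CML against CP CML (17.6%, below the 20.4% of all genes), Slirp, which stabilizes mitochondrial mRNAs (0.47, adjusted p = 0.000121), the elongation factor Tufm (0.34, 0.0119) and the membrane insertase Oxa1l (0.21, 0.000246), and Guf1 fell (-0.22, 0.01). In the other comparisons 5 rose and 0 fell (miR-142 KO against WT), 7 rose and 1 fell (CP CML against WT, with the elongation factor Gfm1 at 0.63) and 7 rose and 1 fell (BC CML against miR-142 KO).

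Of 32 assembly and rRNA modification factors, 10 rose (31.3%) and 3 fell in BC CML against CP CML, including the GTPase Noa1 (0.28, adjusted p = 0.00765) and Malsu1 (0.24, 0.0146), which keeps immature large subunits from joining. The counts were 6 and 2 in miR-142 KO against WT, 8 and 5 in CP CML against WT, and 10 and 1 in BC CML against miR-142 KO. Of 23 aminoacyl-tRNA synthetases and amidotransferase subunits, 4 rose (17.4%, again below all genes) and 2 fell in BC CML against CP CML, with Gatc at 0.50 (adjusted p = 2.76e-08). The counts were 5 and 1, 8 and 2, and 5 and 1 in the other comparisons, in the same order. Of 18 genes of mitochondrial DNA upkeep and transcription, 1 rose in BC CML against CP CML, the RNA-degrading Pnpt1 (0.21, adjusted p = 0.0201), and 0 fell. In the other comparisons 4 rose and 4 fell (miR-142 KO against WT), 3 and 2 (CP CML against WT) and 3 and 0 (BC CML against miR-142 KO). Of 78 cytosolic ribosomal proteins 9 rose (11.5%, below the 20.4% of all genes) and 4 fell in BC CML against CP CML, with a median of 0.02. In the other comparisons 3 rose and 6 fell (miR-142 KO against WT), 7 and 9 (CP CML against WT) and 8 and 4 (BC CML against miR-142 KO).

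Of 11 regulators, 1 rose and 2 fell in BC CML against CP CML and in miR-142 KO against WT, 4 rose and 3 fell in CP CML against WT, and 2 rose and 2 fell in BC CML against miR-142 KO. Esrra, a nuclear receptor of mitochondrial genes, rose in BC CML against CP CML (0.29 ± 0.04, adjusted p = 1.28e-05). The GABP subunit Gabpb1 (-0.38 ± 0.06, 2.77e-05) and the coactivator Ppargc1b (-0.44 ± 0.10, 0.00111) fell. Myc (-0.22, adjusted p = 0.124), Nrf1 (-0.08), Gabpa (0.01) and Yy1 (0.03) were not called. In miR-142 KO against WT Esrra rose by 0.51 and Gabpb1 and Ppargc1a fell (-0.32 and -1.58). Esrra rose and Gabpb1 fell in CP CML against WT as well, by 0.43 and -0.22, and in BC CML against miR-142 KO, by 0.20 and -0.28. The others called in CP CML against WT were Gabpa (0.11), Max (0.11) and Ppargc1b (0.38), which rose, and Mycn (-0.72) and Ppargc1a (-1.15), which fell. In BC CML against miR-142 KO they were Max (0.12) and Mycn (-0.61). A link from these genes to the members was not tested.

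Markers of cell types within and beside the LSK gate moved with the groups. HSC markers had 2 of 10 that rose and 6 that fell in BC CML against CP CML, 2 and 5 in miR-142 KO against WT, 1 and 7 in CP CML against WT, and 0 and 5 in BC CML against miR-142 KO. Their summed level ranged from 2095 to 2331 CPM in BC CML, 2351 to 2712 in CP CML, 2188 to 2641 in miR-142 KO (2242 to 2641 without replicate 3) and 2455 to 3583 in WT. This list includes the sort markers Kit and Ly6a, and the Kit level given above makes up a large part of each sum. Between BC CML and CP CML, Kit was lower and Ly6a higher in BC CML. Neutrophil-primed markers rose in 4, 8, 6 and 4 of 8, in the same order of comparisons, with sums from BC CML to WT of 5917 to 8694, 4550.0 to 7729, 2835 to 7657 (6259 to 7657 without miR-142 KO replicate 3) and 1293 to 4911 CPM. Mast cell or basophil markers rose in 3, 5, 4 and 3 of 6, with sums from BC CML to WT of 3439 to 7134, 1323 to 2361, 429 to 2975 and 261 to 781 CPM. Erythroid markers fell in 2, 1, 5 and 5 of 6, and none rose. Mature neutrophil markers rose in 0, 5, 2 and 2 and fell in 3, 0, 1 and 6 of 8, and megakaryocyte markers rose in 0, 5, 1 and 0 and fell in 1, 0, 2 and 5 of 6. T or NK cell markers rose in 3, 3, 0 and 0 and fell in 1, 1, 2 and 2 of 5, with medians of 0.56 in BC CML against CP CML and 0.76 in miR-142 KO against WT. Monocyte or macrophage markers rose in 0, 0, 3 and 1 and fell in 0, 2, 0 and 0 of 8, and B lineage markers fell in 2, 1, 1 and 2 of 6. Of 25 S phase and mitosis genes, 7, 3, 7 and 5 rose, with a median of 0.09 in BC CML against CP CML. No marker in these lists was at 0 in all 24 libraries. The part of these marker differences in the levels of the mitoribosomal members was not tested.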

How the data were processed

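The deposited file held raw counts per gene, made by the authors with Trimmomatic, FASTP, STAR 2.6.0 on mm10 and HTSeq-count 0.11.1, from Kapa mRNA HyperPrep libraries. Annotation and strand setting were not stated. The methods give 5 mice per group and 6 were deposited. All 24 libraries were fitted together with edgeR 4.0.16 (R 4.3.3, TMM, filterByExpr, quasi-likelihood test, prior count 2), with the Benjamini-Hochberg adjustment over 13520 genes and a threshold of 0.05, after tests on simulated data. The SE is the log2 fold change divided by the square root of F. Alternatives were DESeq2 1.42.0, a likelihood ratio test, other scalings and filters, sex as a covariate, only the groups compared, a fold limit and leaving out each library. Per subunit and comparison, the 5 called members with the smallest p were named, and any that fell. Per-length levels use the gene lengths in the file. Members and lists were chosen with earlier results of these data known. Depth (16267965 to 24687077 counts) limits Mrpl23 and Mrps36. No 2 replicates agreed within sampling noise (lowest chi-square per degree of freedom 5.82).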

Additional observations from a re-analysis of the deposited data

Results flagged for a closer look

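In 124 groups of 6 libraries (the subunit levels and the named members), 22 held a library that stood apart by Dixon's criterion. By chance the criterion takes about 1 in 20 independent groups. These groups were not independent, because they share libraries and the subunit levels average over the members. That rate is therefore no measure of how unusual the 22 are. Of the 22, 16 were miR-142 KO replicate 3. It stood at a mean log2 level of 5.33 in the large subunit (4.98 to 5.01 in the other 5) and 4.95 in the small subunit (4.55 to 4.62). Under Mrpl symbols its levels were 89.3 CPM for Mrpl12, 77.7 for Mrpl16, 59.0 for Mrpl2, 52.4 for Mrpl20, 54.6 for Mrpl28, 38.5 for Mrpl35, 50.7 for Mrpl49 and 28.4 for Mrpl51. Under Mrps symbols they were 63.0 CPM for Mrps15, 34.4 for Mrps18a, 26.1 for Mrps18b, 23.0 for Mrps28, 42.8 for Mrps5 and 66.0 for Mrps7. Each of these 16 values was the highest of its group.

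In WT, replicate 1 was the highest for Mrps12 (19.5 CPM, others 15.7 to 16.8) and Mrps25 (39.2 CPM, others 29.8 to 33.0), and replicate 3 for Mrps34 (24.2 CPM, others 20.9 to 21.6). In BC CML, replicate 6 was the lowest for Mrpl34 (27.4 CPM, others 29.8 to 30.8), replicate 2 the highest for Mrpl49 (61.6 CPM, others 52.6 to 55.6) and replicate 3 the lowest for Mrps18b (20.1 CPM, others 25.6 to 28.3). The interaction test gave Mrpl24 a difference of 0.22 between the effects of miR-142 loss with and without BCR-ABL (edgeR quasi-likelihood test, adjusted p = 0.0478). This call was lost in most refits that left out a single library.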

How the results depend on the processing

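The counts of members called were 32 in BC CML against CP CML, 20 in miR-142 KO against WT, 57 in CP CML against WT, 63 in BC CML against miR-142 KO and 1 in the difference between effects. Leaving out each of the 24 libraries gave 16 to 38, 13 to 26, 52 to 64, 57 to 71 and 0 to 1. In the first 4 comparisons the share of all genes that rose in these refits was 16.2% to 20.7%, 17.7% to 21.1%, 20.5% to 25.4% and 16.7% to 23.6%. An absolute log2 fold change of at least 0.5 left 0, 1, 5, 4 and 0 members. The share of all genes past this fold limit was not computed. Upper quartile scaling gave 19 in BC CML against CP CML, and fitting only the groups compared gave 9 in miR-142 KO against WT. The difference between effects had 0 under the likelihood ratio test, RLE size factors, no filter and the filter of 1 CPM in 6 samples. Its medians of 0.06 and 0.05 went from -0.0034 (without CP CML replicate 5) to 0.081 in the large subunit and from -0.017 (without CP CML replicate 6) to 0.089 in the small subunit when single libraries were left out. The cause was not tested. Of 377 refits of named members, 364 kept direction and call and 13 kept the direction only. These members were named by the smallest p in the main fit, which favours keeping the call. Of the fits that left out a library, only that with the largest adjusted p was counted per member and comparison. Prior counts of 0.5 and 5 were also run. No paired analysis was possible because the labels give mouse identifiers and no replicate numbers shared between groups.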
